A study of Mus musculus with 30 samples.

Results

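The iron-handling and metallothionein genes described here were 10 protein-coding genes, chosen by their symbols from the 30952 genes measured in spinal cord microglia and astrocytes: Mt1, Mt2, Mt3, Fth1, Ftl1, Tfrc, Slc40a1, Slc11a1, Cp and Hmox1. All 10 were in the table and all 10 were tested in each comparison. In mice with experimental autoimmune encephalomyelitis (EAE), mRNA of both ferritin chains rose in both cell types, with Fth1 2.25-fold and Ftl1 2.27-fold higher in microglia and Fth1 3.24-fold and Ftl1 3.22-fold higher in astrocytes. The iron exporter Slc40a1 fell 16.4-fold in microglia, from 5.68 ± 1.18 (SD, n = 4) to 1.64 ± 0.68 (SD, n = 6) log2 FPKM. The metallothioneins were far higher in astrocyte than in microglial libraries. Mt3 stood at 10.11 ± 0.87 (SD, n = 4) log2 FPKM in naive astrocytes and 0.52 ± 0.35 (SD, n = 4) in naive microglia. A RIPK1 inhibitor given during EAE moved 1 of the 10 genes past an unadjusted cutoff in each cell type, beside 1.76% of all genes in microglia and 3.02% in astrocytes, and none past an adjusted p under 0.05 (limma). Among genes averaging at least 1 log2 FPKM the shares past the unadjusted cutoff were 3.64% in microglia and 6.23% in astrocytes.

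The study sorted both cell types from the spinal cords of female C57BL/6 mice in 3 groups. Naive mice (n = 4) were not immunized, and the labels name no dosing for them. EAE, an autoimmune disease of the spinal cord and brain used as a model of multiple sclerosis, was induced in the other groups with the myelin peptide MOG35-55. From a clinical score of about 1, mice received 2 gavages a day for 3 days of 20% Captisol, a cyclodextrin vehicle (EAE-vehicle, n = 6), or of 50 mg/kg of the RIPK1 kinase inhibitor GSK'547 (EAE-RIPK1inh, n = 5). Each group gave 1 microglial and 1 astrocyte library per replicate number, 30 libraries in all, and microglia were gated as CD11b+CD45intCX3CR1+ and astrocytes as GLAST+CD11b-CD45-CD140a-. Values are log2 FPKM, a level corrected for exon length and library size. They were quantile-normalized as deposited, so that each is the value fixed for the rank of a gene in its library. Gaps between genes are gaps on that shared scale. A log2 difference of 1 is a doubling, and differences of low genes depend on the offset added before the logarithm, which is not given in the sources used here.

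Iron is taken into cells bound to transferrin through the transferrin receptor (Tfrc), stored inside ferritin shells built of heavy (Fth1) and light (Ftl1) chains, and released through ferroportin (Slc40a1), with the ferroxidase ceruloplasmin (Cp) oxidising it outside the cell. Slc11a1 moves metal ions out of the phagosomes of macrophage-type cells, and heme oxygenase 1 (Hmox1) frees iron from heme. Metallothioneins (Mt1, Mt2, Mt3) are small cysteine-rich proteins that bind zinc and copper, and Mt3 is the brain form. Glia of the spinal cord are known to hold and recycle iron, which accumulates in inflamed and demyelinated tissue.

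The mRNAs of the storage, export and uptake genes carry the iron-responsive element, a hairpin bound by the iron regulatory proteins when iron is scarce. Bound in a 5′ UTR it blocks translation, and bound in a 3′ UTR it keeps the mRNA from decay, so the mRNA level of Fth1, Ftl1 and Slc40a1 need not follow their protein. The elements of the 4 genes that hold one are shown because ferritin and ferroportin are among the genes past the adjusted p in EAE below. Cp, Mt1, Mt2 and Hmox1 were also called in EAE and hold no match. They were read from GENCODE M21 transcripts on the GRCm38 build, 27 bases on the transcript strand with the loop in capitals. Fth1 (chr19:9980598-9985098, plus strand) and Ftl1 (chr7:45457944-45459884, minus strand) each hold 1 element in the 5′ UTR, at chr19:9982733-9982759 and chr7:45459780-45459806. The element of Slc40a1 (chr1:45908068-45926523, minus strand) lies in its 5′ UTR at chr1:45925466-45925492. Tfrc (chr16:32608920-32632794, plus strand) holds 4 in its 3′ UTR, at chr16:32631220-32631246, chr16:32631599-32631625, chr16:32631664-32631690 and chr16:32631711-32631737, listed here in that order.
Fth1: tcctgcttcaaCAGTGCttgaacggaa
Ftl1: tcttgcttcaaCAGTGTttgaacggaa
Slc40a1: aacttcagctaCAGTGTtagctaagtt
Tfrc a: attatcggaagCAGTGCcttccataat
Tfrc b: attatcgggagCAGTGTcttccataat
Tfrc c: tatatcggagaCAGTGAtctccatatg
Tfrc d: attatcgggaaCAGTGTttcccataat
The Fth1 and Ftl1 elements were identical at 25 of 27 bases. The search ran over whole protein-coding transcripts, coding sequence included, on the transcript strand alone. It looked for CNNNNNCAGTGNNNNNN with 5 paired stem positions (G-T pairs allowed) and found it in 294 of 21877 protein-coding genes (1.34%). That share is therefore not one of UTRs alone. No match in a gene says only that these letters were not found there.

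Marker genes followed the cell type labels. The mean of 8 astrocyte markers ran from 7.78 to 9.76 log2 FPKM in astrocyte libraries and from 0.99 to 2.11 in microglial ones, and that of 10 microglial markers from 7.54 to 10.38 in microglia and from 0.83 to 3.41 in astrocytes. Astrocyte libraries also held 7 oligodendrocyte markers at 6.19 to 9.91 and 6 neuronal markers at 4.34 to 5.82, where microglial libraries had the former at 1.72 to 2.95 and the latter at 0.03 to 0.69. The number of genes with signal ran from 8710 to 20398 in microglia and from 6728 to 22981 in astrocytes. Under 10000 genes with signal were found in 4 libraries: naive microglia 4, naive astrocyte 2, EAE-vehicle astrocyte 1 and EAE-RIPK1inh astrocyte 5. In such bulk libraries, fewer cells of a type and less RNA per cell cannot be told apart.

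**Figure D1:**
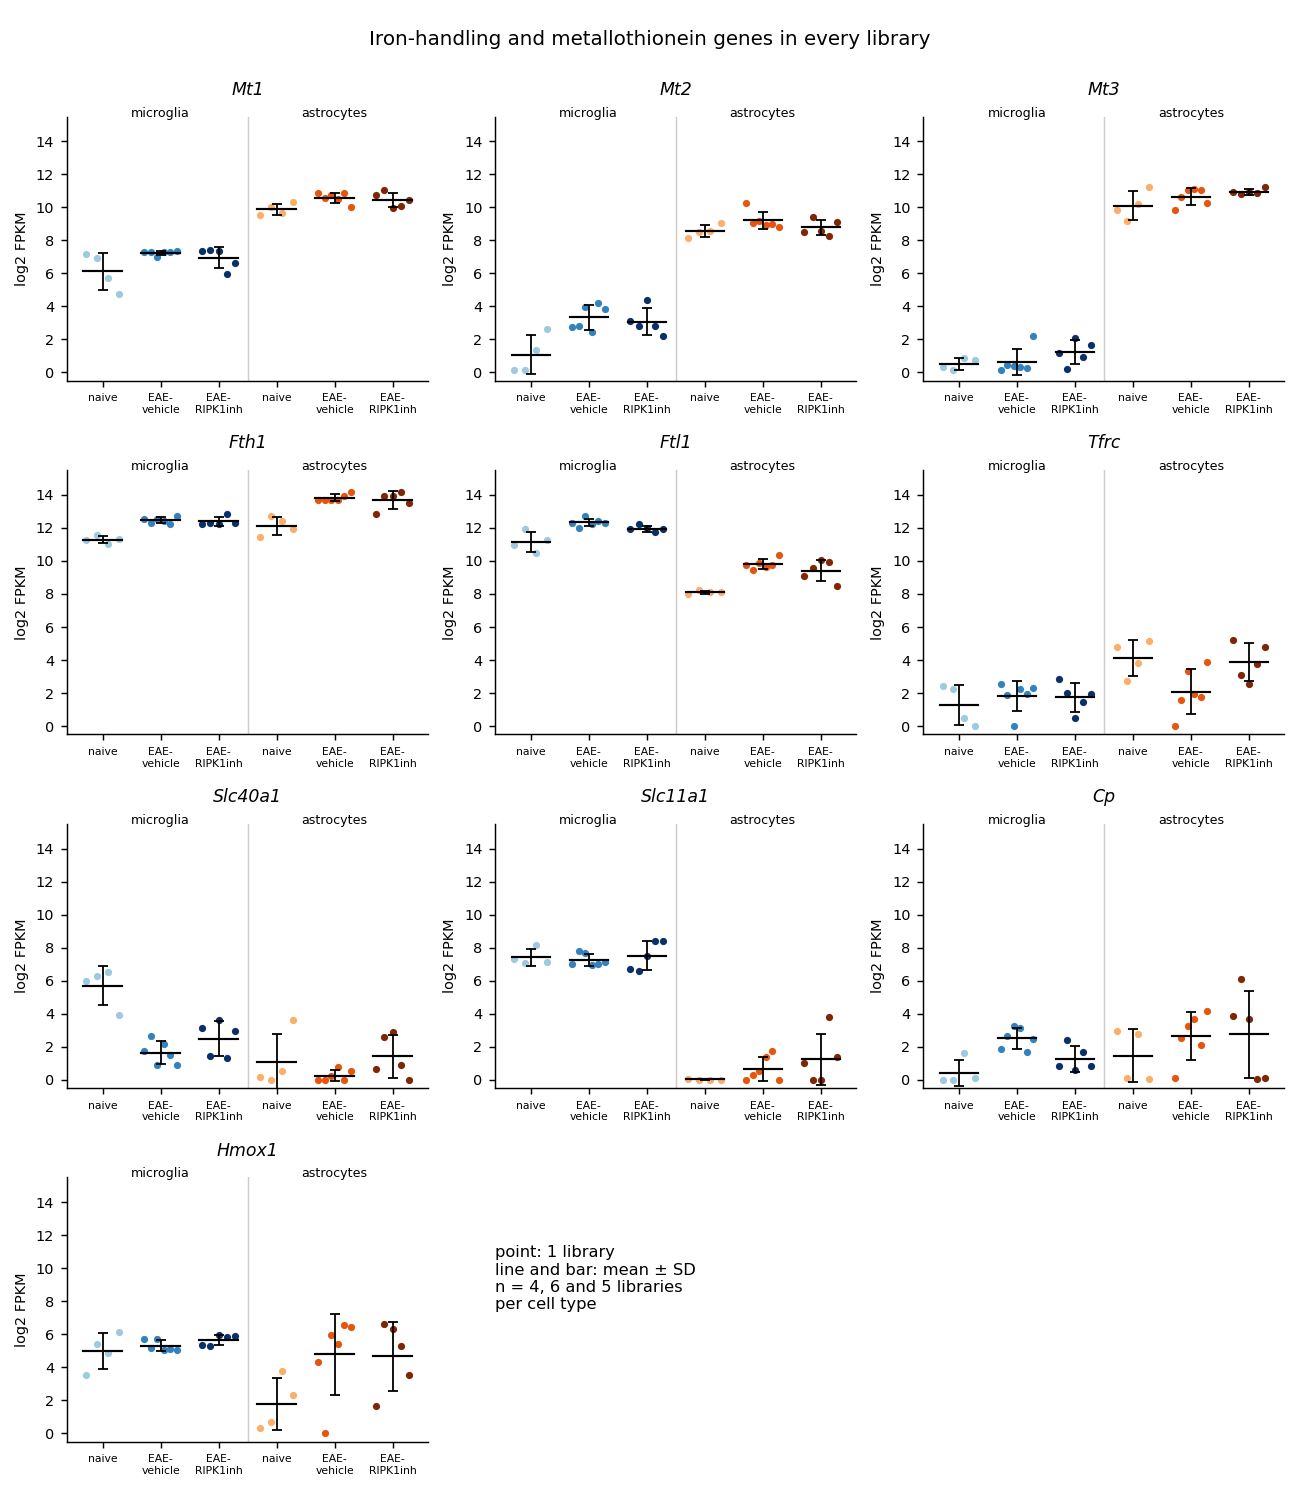
Level of each of the 10 genes in every library, in log2 FPKM on the y axis (0 to 15), by treatment group on the x axis, microglia in blue at the left and astrocytes in orange at the right of each panel; each point is 1 library and the black line and bar are the mean ± SD (n = 4, 6 and 5). Within each cell type, Fth1 and Ftl1 sat higher in every EAE-vehicle than in every naive library. Slc40a1 was lower in every EAE-vehicle than in every naive microglial library, and the 3 metallothioneins were higher in all astrocyte than in all microglial libraries.

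Most of these genes separated the cell types. In naive mice 9 of the 10 genes were called between microglia and astrocytes at a fold change over 1.5 and an unadjusted p under 0.05 (limma), all but Cp, beside 19.7% of all genes and 41.8% of genes averaging at least 1 log2 FPKM. The same 9 passed an adjusted p under 0.05, beside 11.9% of all genes. The study sorted both cell types from the same groups of mice, and these fits took all libraries as independent. Higher in astrocytes were 5 (Mt1, Mt2, Mt3, Fth1 and Tfrc) and higher in microglia 4 (Ftl1, Slc40a1, Slc11a1 and Hmox1). In EAE-vehicle mice 7 genes were called and 6 passed the adjusted p (22.4% and 13.8% of all genes), and in EAE-RIPK1inh mice 7 were called and 7 passed (21.7% and 13% of all genes). Of genes averaging at least 1 log2 FPKM, 48.5% were called in EAE-vehicle and 46.4% in EAE-RIPK1inh mice. Mt1, Mt2, Mt3, Fth1, Ftl1 and Slc11a1 were called in all 3 groups of mice, each in 1 direction. Tfrc was called in naive and EAE-RIPK1inh mice. Slc40a1 was called in naive mice (4.60 log2 higher in microglia) and, at 1.39 log2, in EAE-vehicle mice, the latter not without EAE-vehicle microglia 2 (1.19 log2) or without EAE-vehicle microglia 4 (1.30 log2), nor with centring (1.09 log2) or library weights (1.11 log2). Hmox1 was called in naive mice, without whose 2 libraries under 10000 genes with signal its difference was 2.47 log2 with an unadjusted p of 0.0656 (limma).

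The order of the 6 group means differed from gene to gene. For Fth1 it ran from 13.83 in EAE-vehicle and 13.69 in EAE-RIPK1inh astrocytes, which overlapped, down to 12.46 in EAE-vehicle and 12.39 in EAE-RIPK1inh microglia, 12.13 in naive astrocytes and 11.29 in naive microglia, and each of these 4 lower groups overlapped the next. For Ftl1 all 3 microglial means (12.34, 11.97 and 11.15 in EAE-vehicle, EAE-RIPK1inh and naive mice) stood above all 3 astrocyte means (9.80, 9.42 and 8.12). Naive microglia stood alone at the top for Slc40a1 (5.68), above EAE-RIPK1inh microglia (2.49), and the other five groups overlapped their neighbours in order. For Mt2 and Mt3 the gap lay between all astrocyte and all microglial groups, at 5.24 and 8.90 log2, with overlapping neighbours on each side of it.

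Ferritin stood among the most abundant mRNAs of both cell types. Fth1, the chain that carries the ferroxidase activity, read 11.25, 11.57, 11.04 and 11.32 log2 FPKM in the 4 naive microglial libraries. In EAE-vehicle microglia it ran from 12.23 to 12.70 with a median of 12.49, and in EAE-RIPK1inh microglia it read 12.23, 12.32, 12.23, 12.87 and 12.32. All libraries of mice with EAE were above all naive ones, and the 2 EAE groups overlapped. The rise in EAE-vehicle over naive microglia was 1.17 ± 0.15 log2 (SE; adjusted p = 0.000321, limma), and each of the 6 mice shared it (exact permutation p = 0.00476, two-sided, the smallest that 4 against 6 allows). EAE-RIPK1inh microglia were 1.10 ± 0.16 log2 (SE) above naive ones (adjusted p = 0.00102, limma).

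Fth1 was higher in astrocytes, with naive microglia minus naive astrocytes at -0.84 ± 0.23 log2 (SE; adjusted p = 0.0131, limma). The naive ranges of the cell types overlapped (exact permutation p = 0.0571, two-sided). Naive astrocyte libraries read 11.48, 12.70, 12.43 and 11.93 log2 FPKM, and by level Fth1 was between the 11th and the 23rd gene of a library. EAE-vehicle astrocytes ran from 13.71 to 14.20 with a median of 13.71, where Fth1 was between the third and the fifth gene of each library. EAE-RIPK1inh astrocytes read 12.87, 13.93, 13.93, 14.20 and 13.51, and again no library of a mouse with EAE was as low as a naive one. Since the deposited values were quantile-normalized, a gene this near the top takes the value fixed for its rank, and 4 EAE-vehicle libraries share 13.71 for that reason. The rise in EAE was 1.70 ± 0.25 log2 (SE; adjusted p = 0.00381, limma; exact permutation p = 0.00476, two-sided).

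Ftl1, the light chain that helps iron mineralise within the shell, was the reverse in its distribution. Naive microglia read 10.97, 11.93, 10.46 and 11.25 log2 FPKM and naive astrocytes 8.01, 8.23, 8.11 and 8.12, a difference of 3.04 ± 0.27 log2 (SE; adjusted p = 1.5e-09, limma). In EAE-vehicle it ran from 12.02 to 12.70 with a median of 12.32 in microglia and from 9.43 to 10.34 with a median of 9.76 in astrocytes. Each EAE-vehicle library was above each naive library of its cell type. The rises were 1.18 ± 0.22 log2 (SE; adjusted p = 0.00611, limma) in microglia and 1.69 ± 0.27 log2 (SE; adjusted p = 0.0083, limma) in astrocytes. EAE-RIPK1inh libraries read 11.93, 12.23, 12.02, 11.73 and 11.93 in microglia and 9.07, 9.56, 10.06, 9.92 and 8.46 in astrocytes. Their group means lay between those of the naive and the EAE-vehicle groups in both cell types. The deposited annotation marks Ftl1 as sharing reads with other genes, and the table holds the copies Ftl1-ps1 and Ftl2-ps, so its level is uncertain. Fth1 carries no such mark, although the table also holds its copy Fth-ps2.

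**Figure D2:**
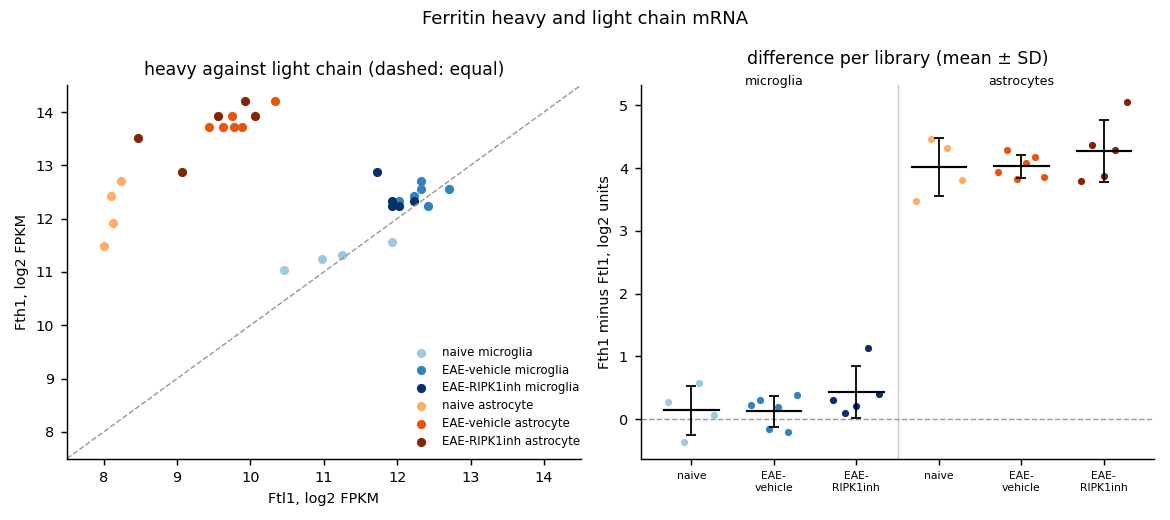
Left, Fth1 (y axis) against Ftl1 (x axis), both in log2 FPKM, 1 point per library, with equality as the dashed line; right, Fth1 minus Ftl1 in log2 units for each library by group, with the mean ± SD in black (n = 4, 6 and 5). Microglial libraries lay near the dashed line at every treatment, and astrocyte libraries about 4 log2 units above it.

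Both ferritin chains rose in EAE, and the gap between them differed between the cell types. In naive microglia Fth1 exceeded Ftl1 by 0.14 ± 0.39 log2 (SD, n = 4), and the gap was 0.13 ± 0.24 (SD, n = 6) with vehicle and 0.43 ± 0.41 (SD, n = 5) with the inhibitor. In astrocytes it was 4.02 ± 0.46 (SD, n = 4) in naive mice, or 16.2-fold on the quantile-normalized scale. It was 4.03 ± 0.18 (SD, n = 6) with vehicle and 4.27 ± 0.50 (SD, n = 5) with the inhibitor. Between cell types the gap differed in EAE-vehicle mice (difference of 3.90 log2, exact permutation p = 0.00216, adjusted over 7 comparisons 0.0152) and in EAE-RIPK1inh mice (3.84 log2, exact permutation p = 0.00794, adjusted 0.0278). With 4 against 4 naive libraries the difference was 3.88 log2 (exact permutation p = 0.0286, the smallest allowed, adjusted 0.0667). These tests take the libraries as independent, although the study sorted both cell types from the same groups of mice. The labels do not say whether a shared number marks 1 mouse. Taken as pairs by number, the gap was wider in astrocytes in 4 of 4 naive, 6 of 6 EAE-vehicle and 5 of 5 EAE-RIPK1inh pairs, with exact sign-flip p of 0.125, 0.0312 and 0.0625 (two-sided), each the smallest that its number of pairs allows, so that only the EAE-vehicle mice could pass 0.05. EAE moved the gap by -0.015 log2 in microglia and 0.0097 log2 in astrocytes, with exact permutation p of 0.933 and 0.967 (two-sided).

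Markers of other cells moved with ferritin. In astrocyte libraries the oligodendrocyte list ran from 6.19 to 7.39 log2 FPKM in naive, 6.38 to 9.91 in EAE-vehicle and 7.81 to 9.19 in EAE-RIPK1inh mice, and 4 of its 7 genes were called higher in EAE. EAE-vehicle astrocyte 1 held that list at 6.38, within the naive range, with Fth1 at 13.71 and Ftl1 at 9.77, above every naive astrocyte library. That library held 6728 genes with signal, the fewest of all. Among astrocyte libraries it had the highest mean of the microglial markers (3.41) and the lowest of the astrocyte markers (7.78). Its T cell markers were at 3.90 and its monocyte and neutrophil markers at 2.93. T cell markers ran from 0.38 to 1.43 in naive and 1.46 to 5.90 in EAE-vehicle astrocytes (6 of 8 called higher) and monocyte and neutrophil markers from 0.13 to 1.31 and from 1.68 to 4.73 (5 of 8 tested called higher), and 3 of 10 microglial markers were called higher. The astrocyte markers themselves ran from 9.32 to 9.76 in naive, 7.78 to 9.00 in EAE-vehicle and 8.59 to 9.60 in EAE-RIPK1inh astrocytes, with 5 of 8 called lower and 1 higher in EAE. The part of these lists in the ferritin rise was not tested. In microglia the monocyte and neutrophil list ran from 1.92 to 6.47 in naive and from 3.07 to 6.95 in EAE-vehicle mice (3 of 9 called higher). EAE-vehicle microglia 1, 3 and 6 had it at 6.95, 6.73 and 6.51 with Fth1 at 12.55, 12.55 and 12.70. EAE-vehicle microglia 2, 4 and 5 had it at 4.38, 3.07 and 4.38 with Fth1 at 12.32, 12.43 and 12.23. Naive microglia 1 to 4 had it at 1.92, 2.69, 6.47 and 3.69 with Fth1 at 11.25, 11.57, 11.04 and 11.32. The part of the monocyte and neutrophil list in the microglial ferritin rise was not tested.

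**Figure D3:**
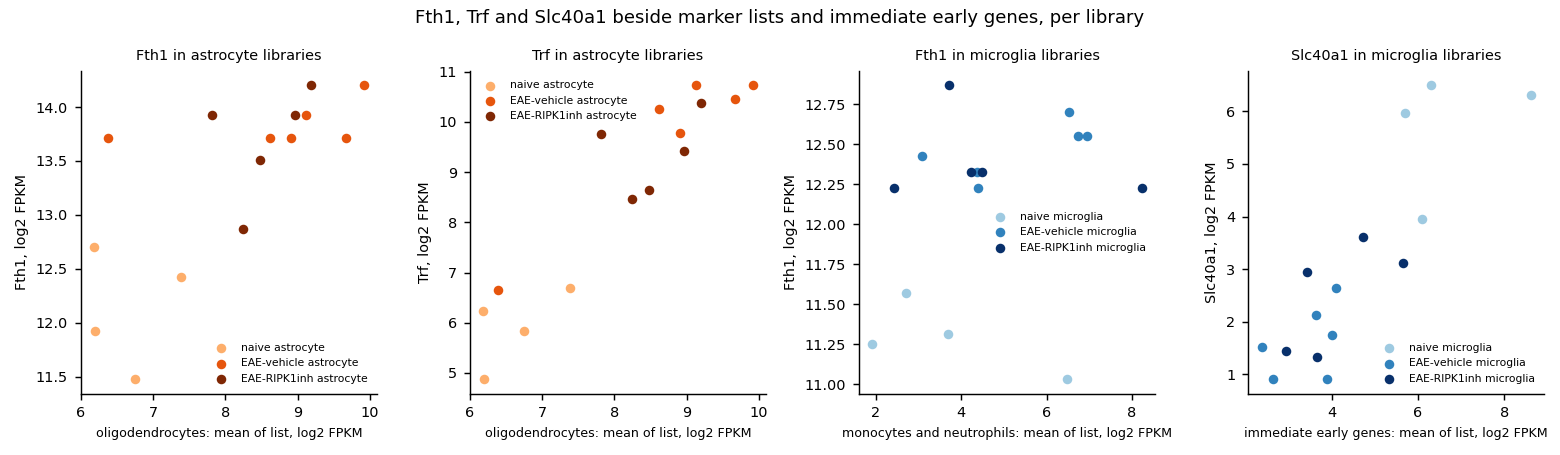
Fth1 and Trf in astrocyte libraries against the mean of 7 oligodendrocyte markers (left panels), Fth1 in microglial libraries against the mean of 9 monocyte and neutrophil markers and Slc40a1 against the mean of 8 immediate early genes (right panels), all in log2 FPKM, 1 point per library, coloured by group. One EAE-vehicle astrocyte library lay at 6.38 on the oligodendrocyte axis with Fth1 at 13.71 and Trf at 6.64, and Slc40a1 and the immediate early genes were both higher in all naive than in all EAE-vehicle microglial libraries.

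The mRNA of the iron exporter fell in EAE microglia. Slc40a1, the only iron exporter known in mammals, read 5.98, 6.31, 6.49 and 3.94 log2 FPKM in naive microglia. In EAE-vehicle microglia it ran from 0.92 to 2.64 with a median of 1.63, and in EAE-RIPK1inh microglia it read 3.11, 1.45, 3.62, 1.33 and 2.95. No library of a mouse with EAE reached the lowest naive one. The fall was -4.04 ± 0.59 log2 (SE; adjusted p = 0.000881, limma; exact permutation p = 0.00476, two-sided) with vehicle and -3.19 ± 0.61 log2 (SE; adjusted p = 0.00942, limma) with the inhibitor. Without naive microglia 4, the library with the lowest naive value and 8710 genes with signal, the fall in EAE-vehicle was -4.61 log2.

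Gene lists of other kinds moved with Slc40a1. The 8 immediate early genes, which cell isolation is known to induce, ran from 5.71 to 8.62 log2 FPKM in naive and from 2.37 to 4.10 in EAE-vehicle microglia, and 7 of the 8 were called lower in EAE. The 10 microglial markers ran from 9.73 to 10.38 in naive and from 7.54 to 8.21 in EAE-vehicle microglia, with 8 called lower and 1 higher. EAE-RIPK1inh microglia 1 to 5 had the immediate early genes at 5.65, 2.93, 4.73, 3.67 and 3.43. Their Slc40a1 read 3.11, 1.45, 3.62, 1.33 and 2.95 in the same order. Naive microglia 1 to 4 had the immediate early genes at 5.71, 8.62, 6.29 and 6.08 and Slc40a1 at 5.98, 6.31, 6.49 and 3.94. The part of either list in the fall of Slc40a1 was not tested. In astrocytes Slc40a1 was near the bottom of the scale: naive libraries read 0.18, 0.00, 0.52 and 3.61, EAE-vehicle ones at most 0.75, and EAE-RIPK1inh ones 0.64, 2.60, 2.91, 0.88 and 0.00. The EAE difference there was -0.83 ± 0.75 log2 (SE), not called. The EAE difference in microglia minus that in astrocytes was -3.21 ± 0.96 log2 (SE; interaction, unadjusted p = 0.00233, adjusted p = 0.118, limma).

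Ceruloplasmin rose from almost no signal in EAE microglia. Cp (chr3:19957054-20009145, plus strand) had signal in 1 of 4 naive microglial libraries, at 1.59 log2 FPKM, and the other three read 0.10 or less. In EAE-vehicle microglia it ran from 1.70 to 3.27 with a median of 2.57, above all naive libraries. The difference was 2.09 ± 0.48 log2 (SE; adjusted p = 0.0216, limma; exact permutation p = 0.00476, two-sided). EAE-RIPK1inh microglia read 0.81, 2.40, 0.57, 1.67 and 0.83, between the other groups and overlapping both. In astrocytes Cp varied from 0.04 to 6.10 log2 FPKM without separating the groups, and the EAE difference was 1.19 ± 1.18 log2 (SE). Cp is also marked as sharing reads, and Hps3 overlaps it on the opposite strand in libraries whose preparation does not keep strand.

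The transferrin receptor was called lower in EAE-vehicle astrocytes on the unadjusted p. Tfrc read 4.79, 2.74, 3.83 and 5.16 log2 FPKM in naive astrocytes and 5.22, 3.08, 2.54, 3.75 and 4.81 in EAE-RIPK1inh astrocytes. In EAE-vehicle astrocytes it ran from 0.01 to 3.90 with a median of 1.86. The ranges overlapped. The EAE-vehicle difference from naive was -2.04 ± 0.79 log2 (SE; unadjusted p = 0.0204, adjusted p = 0.501, limma; exact permutation p = 0.0476, two-sided), and it was no longer called without naive astrocyte 1 (-1.82 log2) or without naive astrocyte 4 (-1.70 log2). Erythrocyte markers, which include hemoglobins, ran from 3.88 to 8.67 in naive and from 0.08 to 7.40 in EAE-vehicle astrocytes with 0 of 5 called, and 5 of 8 astrocyte markers were called lower in the same comparison. Endothelial markers ran from 0.21 to 4.45 in naive astrocytes, with naive astrocyte 4 the highest. In EAE-vehicle astrocytes they ran from 0.20 to 1.55, with 0 of 6 called. The part of these lists was not tested. Microglia held less Tfrc, from 0.00 to 2.85 over the 15 libraries, and the EAE difference of 0.54 ± 0.62 log2 (SE) was not called. The EAE differences of the cell types were 2.58 ± 1.01 log2 (SE) apart (interaction, unadjusted p = 0.0162, adjusted p = 0.335, limma).

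The phagosomal transporter was not called in EAE in either cell type, and heme oxygenase was called in astrocytes alone, on the unadjusted p. Slc11a1 (chr1:74375195-74386062, plus strand) read 7.32, 7.07, 8.14 and 7.12 log2 FPKM in naive microglia, 6.93 to 7.77 with a median of 7.08 in EAE-vehicle and 6.70, 6.61, 7.49, 8.40 and 8.38 in EAE-RIPK1inh microglia. The groups overlapped throughout, and the 95% interval of the EAE difference in microglia was -0.95 to 0.65 log2. Astrocytes had Slc11a1 signal in 8 of 15 libraries and at most at 3.80. Hmox1 (chr8:75093621-75100589, plus strand) ran from 3.56 to 6.11 in microglia over all 15 libraries, with an EAE difference of 0.32 ± 0.38 log2 (SE), not called. In astrocytes it read 0.34, 0.68, 3.75 and 2.32 in naive, 0.05 to 6.54 with a median of 5.70 in EAE-vehicle, and 1.63, 6.61, 6.30, 5.27 and 3.54 in EAE-RIPK1inh mice. Most libraries of mice with EAE were above the naive ones, with EAE-vehicle astrocyte 2 as the lowest of all. The difference of 3.01 ± 1.28 log2 (SE) was called on the unadjusted p of 0.0321 (limma), but its adjusted p was 0.602 and the two-sided exact permutation test gave 0.0857. Leaving out any of 6 single libraries (naive astrocyte 1 or 2, or EAE-vehicle astrocyte 3, 4, 5 or 6) ended that call, with differences of 2.53 to 2.89 log2.

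Metallothioneins lie side by side on chromosome 8, Mt3 at chr8:94152607-94154146, Mt2 at chr8:94172664-94173568 and Mt1 at chr8:94179082-94180327, all on the plus strand. All 3 were far higher in astrocyte than in microglial libraries. Astrocyte libraries also held neuronal markers at 4.34 to 5.82 and oligodendrocyte markers at 6.19 to 9.91. The part of those cells in the metallothionein levels was not tested. Mt3 in astrocytes read 9.83, 9.18, 10.19 and 11.25 log2 FPKM in naive, 9.83 to 11.14 with a median of 10.83 in EAE-vehicle, and 10.92, 10.79, 10.92, 10.85 and 11.25 in EAE-RIPK1inh mice. In microglia no library exceeded 2.22, and 7 of 15 had no signal. The cell types were 9.60 log2 apart in naive mice, or 774-fold (adjusted p = 2.66e-15, limma).

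Mt1 and Mt2, the forms induced by metals, glucocorticoids and inflammation, were called higher in EAE microglia. Of 5 glucocorticoid-induced genes, 2 were called lower in EAE microglia (median of the 5 at -0.53 log2) and 2 higher in EAE astrocytes (median 1.10 log2), and their part in the metallothionein differences was not tested. Mt1 in microglia read 7.17, 6.92, 5.75 and 4.75 log2 FPKM in naive, 6.99 to 7.38 with a median of 7.28 in EAE-vehicle and 7.37, 7.43, 7.38, 5.96 and 6.66 in EAE-RIPK1inh mice. The EAE-vehicle libraries lay close together, and the naive ones were spread below and up to them. The difference of 1.11 ± 0.42 log2 (SE) was called on the unadjusted p of 0.0184 (adjusted p = 0.207, limma) and was not called without naive microglia 3 (0.97 log2) or without naive microglia 4 (0.64 log2). Mt2 had no signal in naive microglia 1 and 2 and read 1.36 and 2.62 in the other two. In EAE-vehicle microglia it ran from 2.45 to 4.23 with a median of 3.34, and in EAE-RIPK1inh microglia it read 3.14, 2.84, 4.39, 2.80 and 2.18. The rise of 2.27 ± 0.56 log2 (SE; adjusted p = 0.0348, limma; exact permutation p = 0.00952, two-sided) rests in part on naive libraries without signal, so its size depends on the offset. Without naive microglia 1 or without naive microglia 2, the genes passing the adjusted p in EAE microglia fell from 5 to 3.

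In astrocytes both were high in naive mice already, and the 3 metallothioneins stood near the cutoffs in EAE. Mt1 read 9.54, 10.03, 9.68 and 10.31 log2 FPKM in naive, 10.03 to 10.85 with a median of 10.65 in EAE-vehicle and 10.73, 11.04, 9.97, 10.10 and 10.46 in EAE-RIPK1inh astrocytes. Its EAE difference of 0.70 ± 0.23 log2 (SE) was called on the unadjusted p of 0.00778 (adjusted p = 0.32, limma), and without naive astrocyte 1 it was 0.58 log2, just short of the fold cutoff. Mt2 read 8.17, 8.50, 8.56 and 9.08 in naive, 8.83 to 10.27 with a median of 9.03 in EAE-vehicle and 8.52, 9.41, 8.58, 8.29 and 9.12 in EAE-RIPK1inh astrocytes, and its difference of 0.63 ± 0.30 log2 (SE) was not called (unadjusted p = 0.0537, limma). It was called with each library centred on its median (0.75 log2). Mt2 was also called with log2(FPKM + 0.1) (0.63 log2), which takes the deposited offset as 1 although it is not given. The same held without naive astrocyte 4 (0.80), EAE-vehicle astrocyte 4 (0.69) or EAE-vehicle astrocyte 6 (0.71). Mt3, at 0.54 ± 0.33 log2 (SE), was called with centring (0.66 log2) and without naive astrocyte 4 (0.92) or EAE-vehicle astrocyte 1 (0.71). The EAE difference of Mt2 in microglia minus that in astrocytes was 1.64 ± 0.66 log2 (SE; interaction, unadjusted p = 0.0187, adjusted p = 0.356, limma), and this was no longer called without naive microglia 1 or 2 (1.33 log2 in each case) or with centring (1.44 log2). Mt1 exceeded Mt2 in all 30 libraries, by 5.08 ± 2.30 log2 (SD, n = 4) in naive microglia and 1.31 ± 0.18 log2 (SD, n = 4) in naive astrocytes. Mt2 is marked as sharing reads and overlaps Gm45774 on the opposite strand.

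Counted together, 6 of the 10 genes were called in EAE-vehicle against naive microglia, 5 higher (Fth1, Ftl1, Cp, Mt1 and Mt2) and Slc40a1 lower, beside 12% of all genes and 29.0% of genes averaging at least 1 log2 FPKM. Of these, 5 passed an adjusted p under 0.05, beside 3.92% of all genes. The median log2 difference of the 10 was 0.82, against -0.016 over all genes tested. In astrocytes 5 of the 10 were called, 4 higher (Fth1, Ftl1, Hmox1 and Mt1) and Tfrc lower, beside 6.71% of all genes and 15.9% of genes averaging at least 1 log2 FPKM. Fth1 and Ftl1 passed the adjusted p, beside 0.579% of all genes. The median of the 10 was 0.67 log2 there, against 0.026 over all genes. Without naive astrocyte 1 the count called in astrocytes fell from 5 to 2. EAE-RIPK1inh against naive mice gave 4 called genes in microglia (Mt2, Fth1, Ftl1 and Slc40a1) beside 10.1% of all genes, and 2 past the adjusted p (Fth1 and Slc40a1) beside 2.73%. The same comparison gave 4 in astrocytes (Mt3, Fth1, Ftl1 and Hmox1) beside 4.63%, and Fth1 alone past the adjusted p beside 0.13%. Of genes averaging at least 1 log2 FPKM, it called 23.9% in microglia and 9.81% in astrocytes. Both EAE groups were set against the same naive libraries. With the inhibitor, Ftl1 in microglia fell short of the fold cutoff without naive microglia 3 (0.58 log2). Mt3 in astrocytes, 0.83 log2 above naive, was not called without naive astrocyte 1 (0.74), naive astrocyte 2 (0.52) or EAE-RIPK1inh astrocyte 5 (0.76), and Hmox1, 2.90 log2 above naive, was not called without naive astrocyte 1, 2 or 4 or EAE-RIPK1inh astrocyte 2, 3 or 4 (2.41 to 3.08).

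**Figure D4:**
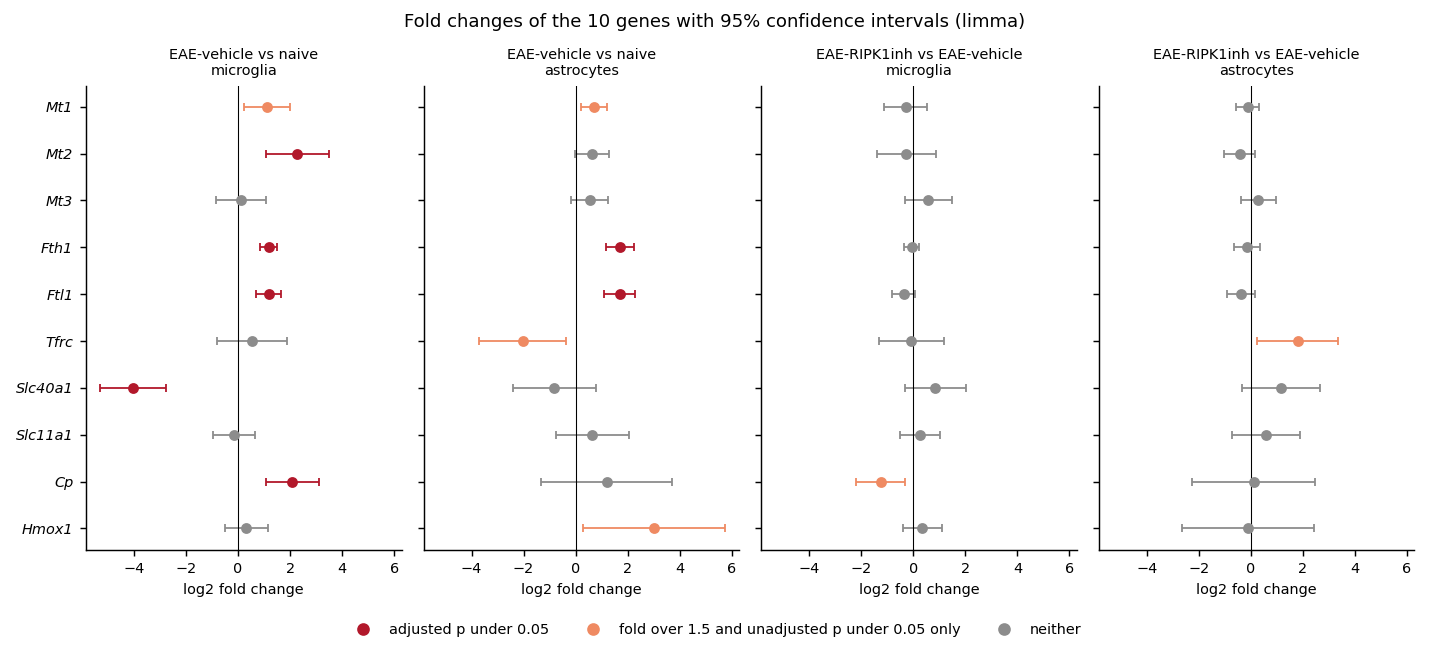
Log2 fold change (x axis) of the 10 genes (y axis) with 95% confidence intervals from limma, for EAE-vehicle against naive and EAE-RIPK1inh against EAE-vehicle in each cell type; red marks an adjusted p under 0.05, orange a fold change over 1.5 with an unadjusted p under 0.05 alone, and grey neither. Fth1 and Ftl1 were red in EAE in both cell types, and each inhibitor panel holds 1 orange point, Cp in microglia and Tfrc in astrocytes.

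The inhibitor moved few of these genes past the cutoffs. In microglia none of the 10 passed the adjusted p, beside 0.00345% of all genes. Called was 1 of the 10, beside 1.76% of all genes and 3.64% of genes averaging at least 1 log2 FPKM. That gene was Cp, with a difference of -1.26 ± 0.45 log2 (SE; unadjusted p = 0.0136, adjusted p = 0.93, limma; exact permutation p = 0.0195, two-sided), with all 5 treated libraries below the EAE-vehicle mean and the ranges overlapping. In astrocytes none of the 10 passed the adjusted p, beside 0% of all genes (limma). Called was 1 of the 10, beside 3.02% of all genes and 6.23% of genes averaging at least 1 log2 FPKM. Here it was Tfrc, higher by 1.79 ± 0.74 log2 (SE; unadjusted p = 0.0282, adjusted p = 0.84, limma; exact permutation p = 0.0476, two-sided). Tfrc was no longer called without EAE-vehicle astrocyte 1 (1.38 log2), EAE-vehicle astrocyte 2 (1.68 log2), EAE-RIPK1inh astrocyte 1 (1.46 log2) or EAE-RIPK1inh astrocyte 5 (1.56 log2). Of 8 astrocyte markers 2 were called higher in the same comparison (median of the 8 at 0.68 log2), and their part was not tested. Each comparison shares its EAE-vehicle libraries with that of EAE against naive. Side by side, Cp in microglia was 2.09 log2 higher in EAE-vehicle than in naive mice and differed by -1.26 log2 between inhibitor and vehicle, and the differences of Tfrc in astrocytes were -2.04 log2 and 1.79 log2 in the same order.

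For ferritin the intervals bound the effect of the inhibitor. The 95% interval of EAE-RIPK1inh minus EAE-vehicle was -0.37 to 0.24 log2 for Fth1 and -0.82 to 0.08 for Ftl1 in microglia, and -0.64 to 0.35 and -0.93 to 0.16 in astrocytes. Ftl1 in microglia differed by -0.37 ± 0.21 log2 (SE) and lay under the EAE-vehicle mean in all 5 treated mice (exact permutation p = 0.0195, two-sided), but its fold change was under 1.5 and its limma p was 0.0975. Slc40a1 in microglia was 0.85 ± 0.55 log2 (SE) higher with the inhibitor, with an interval of -0.33 to 2.03, and it was called with library weights (1.00 log2, unadjusted p = 0.0356, limma). Set against each other, microglia and astrocytes differed in the response to EAE for 3 of the 10 on the unadjusted p (Slc40a1, Tfrc and Mt2), beside 8.68% of all genes, and for none on the adjusted p. In the response to the inhibitor they differed for 0 of the 10, beside 3.15% of all genes, and 0 of the 10 reached an unadjusted p under 0.05 (limma), Tfrc being nearest at 0.0574.

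The wider iron, heme and zinc pathway was covered by 39 other genes of 42 listed, since Hamp, Hpx and Mt4 were not analysed here. In EAE microglia 10 of the 39 were called (25.6%), beside 12% of all genes and 29.0% of genes averaging at least 1 log2 FPKM. Higher were 5, among them Pcbp2, an iron chaperone, Blvrb, of heme breakdown, Steap3, a ferrireductase, and Slc39a14, a metal importer. Lower were 5: Ncoa4, the receptor that carries ferritin to lysosomes, Hfe, the hemochromatosis protein, Slc25a37, a mitochondrial iron importer, Trf, transferrin, and Slc30a4, a zinc transporter. Ncoa4 and Pcbp2 passed an adjusted p under 0.05 (5.13% of the 39, beside 3.92% of all genes), and the median of the 39 was 0.012 log2.

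Ncoa4, which delivers ferritin for breakdown, read 4.88, 5.14, 5.41 and 5.11 log2 FPKM in naive microglia and ran from 3.29 to 4.39 in EAE-vehicle ones. These groups did not overlap, and the fall was -1.06 ± 0.23 log2 (SE; adjusted p = 0.0177, limma). EAE-RIPK1inh microglia read 4.27, 4.68, 5.07, 4.79 and 4.91, and Ncoa4 was the single one of the 39 called with the inhibitor in microglia (2.56%, beside 1.76% of all genes and 3.64% of genes averaging at least 1 log2 FPKM), at 0.67 ± 0.22 log2 (SE; unadjusted p = 0.00874, adjusted p = 0.93, limma). Trf read 10.31, 10.38, 9.83 and 10.13 in naive and 8.61 to 9.36 in EAE-vehicle microglia, with a difference of -1.16 ± 0.35 log2 (SE; adjusted p = 0.0925, limma). Pcbp2 rose by 1.21 ± 0.28 log2 (SE; adjusted p = 0.0217, limma) in EAE microglia. The differences of Hfe and Slc25a37 were -1.36 ± 0.36 log2 (SE; adjusted p = 0.0504, limma) and -1.53 ± 0.42 log2 (SE; adjusted p = 0.062, limma). Trf, Pcbp2 and Slc25a37, and among the genes that follow Slc11a2, Flvcr1 and Fbxl5, are marked as sharing reads.

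In EAE astrocytes 4 of the 39 were called (10.3%), beside 6.71% of all genes and 15.9% of genes averaging at least 1 log2 FPKM. The median of the 39 was -0.32 log2. Lcn2, a secreted protein that binds iron-loaded siderophores and a known gene of reactive astrocytes, read 0.00, 2.44, 0.01 and 0.03 log2 FPKM in naive astrocytes, 3 of them without signal. It ran from 7.60 to 9.43 in EAE-vehicle and read 7.84, 9.63, 7.86, 8.41 and 5.47 in EAE-RIPK1inh astrocytes, all above the naive range. The EAE difference was 8.03 ± 0.72 log2 (SE; adjusted p = 3.19e-05, limma). Trf read 5.84, 6.24, 6.69 and 4.88 in naive astrocytes and 6.64, 9.77, 10.46, 10.27, 10.73 and 10.73 in EAE-vehicle replicates 1 to 6. The difference was 3.85 ± 0.69 log2 (SE; adjusted p = 0.0163, limma). Trf is also an oligodendrocyte gene. The replicate at 6.64 was that whose oligodendrocyte list lay in the naive range, and it held the fewest genes with signal (6728). The part of that list in the Trf difference was not tested. In microglia Lcn2 varied from 0.05 to 9.73 and its EAE difference of 0.83 ± 1.71 log2 (SE) was not called.

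In EAE astrocytes, where 5 of 8 astrocyte markers were called lower, Slc11a2, the main iron transporter of endosomes, differed by -2.67 ± 0.94 log2 (SE; adjusted p = 0.398, limma) and Ireb2, an iron regulatory protein, by -1.44 ± 0.63 log2 (SE; adjusted p = 0.638, limma), both called on the unadjusted p alone. With the inhibitor, 3 of the 39 were called in astrocytes (7.69%), beside 3.02% of all genes and 6.23% of genes averaging at least 1 log2 FPKM. Bach1, a repressor of Hmox1, was 1.09 ± 0.51 log2 (SE) higher, Flvcr1, a heme exporter, -1.67 ± 0.75 log2 (SE) and Fbxl5, the iron sensor that degrades the regulatory proteins, -2.03 ± 0.95 log2 (SE), each with an adjusted p of 0.84 (limma). Flvcr1 was without signal in all 5 treated libraries and Bach1 in 4 of 6 vehicle ones, so both differences depend on the offset.

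**Figure D5:**
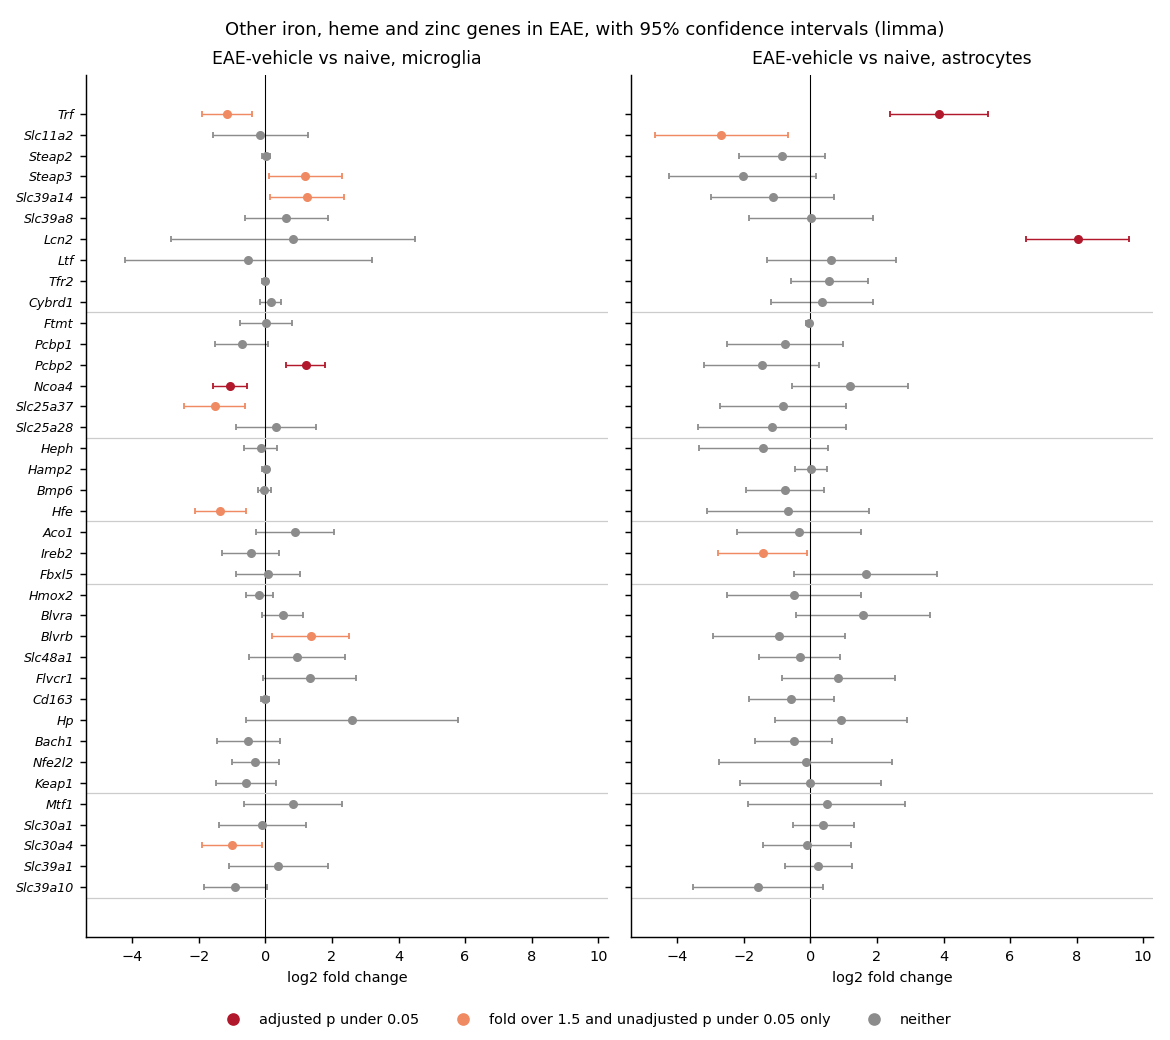
Log2 fold change (x axis) in EAE-vehicle against naive mice of other iron, heme and zinc genes (y axis, grouped by role with grey lines between groups), with 95% confidence intervals from limma, microglia at the left and astrocytes at the right; red marks an adjusted p under 0.05, orange a fold change over 1.5 with an unadjusted p under 0.05 alone. Ncoa4 and Pcbp2 are red in microglia, and Lcn2 (8.03) and Trf (3.85) in astrocytes.

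The genes whose levels ran most like each called gene were found by Pearson's r over the 15 libraries of a cell type, among protein-coding genes averaging at least 1 log2 FPKM. These r values describe libraries that share their 3 groups, and they are given without a test. Fth1 in microglia was most like Slamf7 (r = 0.963), Ly6i (0.960) and Serpina3g (0.955), and in astrocytes like Msn (0.953), H2-T23 (0.946) and Gbp3 (0.945). Ftl1 was most like Nhp2 (0.930), Tmem205 (0.920) and Uqcrq (0.904) in microglia and like Slfn2 (0.953), Zbp1 (0.952) and Nupr1 (0.951) in astrocytes. Slc40a1 in microglia was most like Rhob (0.943), Tmem176b (0.936) and Plekho1 (0.930).

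The metallothioneins had other neighbours. Mt2 in microglia was most like Rps27rt (0.949), Rpl39 (0.944) and Rps15 (0.943), and Mt1 like Snu13 (0.944), Reep5 (0.943) and Ndufv2 (0.941). In astrocytes Mt1 was most like Cnn3 (0.779), Vim (0.747) and Rybp (0.743). The values for Cp in microglia were 0.866 (Smim13), 0.854 (Best1) and 0.848 (Gramd3), for Hmox1 in astrocytes 0.872 (Casp1), 0.855 (Spg7) and 0.850 (Lgals3), and for Tfrc in astrocytes 0.881 (Smo), 0.877 (Cog6) and 0.876 (Lmbr1).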

How the data were processed

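RNA of microglia and astrocytes from 4 naive, 6 EAE-vehicle and 5 EAE-RIPK1inh mice had been poly(A)-selected, copied to cDNA, amplified and cut with Tn5, without strand information. With OmicSoft Array Studio the authors turned reads into 1 deposited table of log2 FPKM for 30 libraries, whose name gives an FPKM minimum of 1. All libraries hold the same sorted values, from 0 to 15.34, so the log2 values as deposited were quantile-normalized. The aligner, annotation release and offset are not given in the sources used here, and neither the depth of a library nor a counting error can be had from such values. Genes without signal in a library were recognised as the lowest stretch of values, which follow row order.

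The 10 genes and the lists were chosen with earlier results of these data known. Gene rows were joined to the deposited annotation by identifier. All 10 positions, and 30917 of all 30952, match GENCODE M21 on GRCm38. Groups came from the labels. R 4.3.3 with limma 3.58.1 (lmFit, then eBayes with a variance trend) was run on the deposited values, fitting the 3 groups of each cell type jointly (28958 genes in microglia and 30718 in astrocytes, leaving out genes with 1 value in all libraries), and with all 30 libraries in 1 fit for cell types and interactions. Calls needed a fold change over 1.5 and an unadjusted p under 0.05, the rule of the study; p-values were also adjusted by Benjamini-Hochberg over all genes tested. The study's methods name a paired test for RNA-seq, and no label says what would pair these mice, so fits were unpaired. Fits of cell types and interactions took libraries of both cell types as independent, although the study sorted both from the same groups of mice. Same-numbered libraries shared deviations with a correlation over 0.1 in at most 2 of the pairs of any 2 groups. Exact permutation tests, two-sided on the size of the difference, ran over all splits of the mice (Python 3.11.15, numpy 2.4.6). The labels give mice as replicates but not their litters or sort days. Fits were tested on simulated data. Other genes were named where called, at most 4 per comparison by p, with Trf and Lcn2 always; Blvrb, Steap3, Slc39a14 and Slc30a4 were named after their values were seen, and 1 gene of the wider list is counted but not reported here. Alternatives changed the filter, pseudocount, centring, library weights, variance trend, libraries fitted, gene classes and block. The pseudocount alternative took the deposited offset as 1, which the sources do not give.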

Additional observations from a re-analysis of the deposited data

Results flagged for a closer look

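Of 60 groups of values (10 genes in 6 groups), 10 had a library far from the others by Dixon's test. For normally distributed values 3 would be expected. Some groups lay at the floor of the scale or on values fixed by rank, so the 10 cannot be read against that 3. Mt1 was at 6.99 log2 FPKM in EAE-vehicle microglia 3, below its group. Mt2 was at 10.27 in EAE-vehicle astrocyte 1, above its group, in the library with the fewest genes with signal. Mt3 was at 2.22 in EAE-vehicle microglia 6 and at 11.25 in EAE-RIPK1inh astrocyte 5, above their groups. Fth1 was at 12.87 in EAE-RIPK1inh microglia 4. Tfrc was at 0 in EAE-vehicle microglia 3, without signal, while the rest of its group read 1.90 to 2.54. Slc40a1 was at 3.61 in naive astrocyte 4, where endothelial markers stood at 4.45 and at most at 0.58 in the other naive astrocyte libraries. Slc11a1 was at 0.056 in naive astrocyte 1, and at 0 in the rest of its group. Cp was at 1.59 in naive microglia 3, the naive microglial library with Lcn2 at 8.57 and the monocyte and neutrophil list at 6.47. Hmox1 was at 0.045 in EAE-vehicle astrocyte 2, which held 22109 genes with signal.

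The response to EAE differed between microglia and astrocytes for 3 genes on the unadjusted p of an interaction term, beside 8.68% of all genes and 17.4% of genes averaging at least 1 log2 FPKM, and for none on the adjusted p (limma). Microglia minus astrocytes, the EAE difference was -3.21 log2 for Slc40a1, 2.58 log2 for Tfrc and 1.64 log2 for Mt2.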

How the results depend on the processing

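In EAE-vehicle against naive mice, Fth1 and Ftl1 in both cell types and Slc40a1, Cp and Mt2 in microglia kept their direction and unadjusted call under each alternative run, each library left out in turn included. Where a count or direction moved, the cause was not tested. A count is given with its main value in brackets. Shares of all genes called were computed for the main fits alone. Counts under an alternative, such as library weights, therefore have no share of all genes beside them.

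With the replicate number as a block, genes past the adjusted p fell to 2 (5) in EAE microglia, 1 (2) in EAE astrocytes and 1 (2) in EAE-RIPK1inh against naive microglia, and genes called with the inhibitor in microglia rose to 2 (1), adding Mt3 at 0.89 log2, as without EAE-vehicle microglia 6, which has no partner and drops out of that difference. The block reversed 3 differences that were not called, Mt3 in EAE microglia (-0.25 log2), Tfrc with the inhibitor in microglia (0.013) and Hmox1 with it in astrocytes (0.21). It ended the calls of Hmox1 in astrocytes against naive mice (2.57 with vehicle, 2.78 with the inhibitor) and of Slc40a1 between cell types in EAE-vehicle mice. Correlations of same-numbered libraries ran from -0.16 to 0.24, and these numbers were not taken as pairs. Low correlations between cell types cannot show that the libraries came from different mice. The pairing by number of the Fth1 to Ftl1 gap was added after seeing the data.

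With library weights, the inhibitor gave 5 (1) called genes in microglia, adding Mt1 (-0.62 log2), Mt2 (-0.91), Slc11a1 (0.82) and Slc40a1 (1.00), and 0 (1) in astrocytes, 7 (1) and 5 (3) of the 39 other genes, and Fth1 in microglia at 0.00013 and Cp in astrocytes at -1.08 log2, both reversed; 9 (4) of the 39 were called in EAE astrocytes, 2 (1) genes passed the adjusted p in EAE-RIPK1inh against naive astrocytes, and Mt1 lost its EAE call in both cell types (0.77 and 0.57). With the 2 groups compared fitted alone, the inhibitor gave 2 (1) of the 39 in microglia and 1 (3) in astrocytes, and no gene of the 10 passed the adjusted p against naive mice, 0 (2) in microglia and 0 (1) in astrocytes. With log2(FPKM + 0.1), Tfrc in microglia (0.14), Cp (-0.53) and Hmox1 (0.27) in astrocytes reversed with the inhibitor, none of them called, and Hmox1 in EAE astrocytes (3.34) and the Slc40a1 interaction (-3.10) were no longer called. A minimum mean of 1 gave 4 (2) genes past the adjusted p in EAE-RIPK1inh against naive microglia and 2 (1) in astrocytes, centring on the median 2 (1) and no variance trend 0 (1) in astrocytes. An alternative chosen after seeing the data left out the 4 libraries under 10000 genes with signal: 0 (1) genes were called with the inhibitor in astrocytes, where Hmox1 reversed (0.072), and EAE-RIPK1inh against naive astrocytes gave 2 (4) called and 2 (1) past the adjusted p.

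Leaving out 1 library at a time moved counts of called genes over 2 to 6 in EAE astrocytes, 1 to 2 (microglia) and 0 to 1 (astrocytes) with the inhibitor, 2 to 5 in EAE-RIPK1inh against naive astrocytes and 0 to 1 for the inhibitor interaction. Genes past the adjusted p ran from 3 to 5 in EAE microglia, 0 to 2 in EAE-RIPK1inh against naive astrocytes and 0 to 1 for the EAE interaction (1 without naive astrocyte 4). Of the 39, the inhibitor called 0 to 4 in microglia and 0 to 3 in astrocytes. Uncalled differences that changed sign were, in EAE microglia, Mt3 (-0.20 to 0.24 log2), Slc11a1 (-0.27 to 0.091) and Hmox1 (-0.16 to 0.69), in EAE astrocytes Slc40a1 (-1.19 to 0.019), and with the inhibitor Tfrc in microglia (-0.45 to 0.23) and Cp (-0.73 to 0.79), Fth1 (-0.27 to 0.064), Hmox1 (-1.06 to 0.65) and Slc11a1 (-0.054 to 0.90) in astrocytes.

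Centring shifted the median of all genes by 0.12 log2 in EAE astrocytes, -0.20 in the EAE interaction and -0.11, -0.30 and -0.25 between cell types in naive, EAE-vehicle and EAE-RIPK1inh mice, and turned no direction among the 10 genes. The share of higher genes among all called moved from 40.1% to 51.2% in EAE astrocytes, 42.9% to 53.7% in EAE-RIPK1inh against naive astrocytes, 55.3% to 31.0% and 53.9% to 33.9% between cell types in EAE-vehicle and EAE-RIPK1inh mice, and 57.2% to 39.8% in the EAE interaction. Depth is unknown for these values, so no limit of detection can be given for genes near 0.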
